A study of Mus musculus with 9 samples.

Results

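The transcripts of 36 genes of the NRF2 and antioxidant system were followed in C2C12 cells, a mouse myoblast line that can fuse into myotubes. They are picked by a list of symbols that was drawn up with earlier results of these data known, so shares set beside all genes are descriptions. Of the 36, 36 were found among the 53700 gene IDs of the count table and had enough reads to be tested. They cover the transcription factor and its sensor, haem and quinone enzymes, glutathione synthesis, and thioredoxins and peroxiredoxins. Also covered are enzymes that remove superoxide and peroxide, enzymes of NADPH supply and the pentose phosphate pathway, and enzymes of conjugation and export. Their counts ran from 129 to 36829 per gene and library.

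NRF2, encoded by Nfe2l2, is a transcription factor that is held in the cytoplasm and marked for degradation by KEAP1. Electrophiles and oxidants modify cysteines of KEAP1, NRF2 then accumulates, pairs with a small MAF protein and binds antioxidant response elements (AREs) near its target genes. Those targets make glutathione, reduce thioredoxin and peroxiredoxin, supply NADPH and detoxify reactive compounds. In muscle this system is known for buffering the oxidants made during contraction and differentiation. NRF2 is controlled largely at the protein level, which RNA counts do not measure.

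Cells of the Val+PA group had valine at 0.45 mM, listed for 24 h, and palmitic acid at 75 µM, listed for 12 h. Cells of the Valine group had valine at 0.45 mM for 36 h, and those of the Control group were collected at the end of 12 h of starvation in OPTI-MEM, a step that cells of the other groups went through too. Palmitic acid is a saturated fatty acid and valine a branched-chain amino acid. Each group was 1 plate of 6 wells, of which 3 were drawn at random and sequenced as strand-specific libraries of total RNA. Replicates are therefore wells of 1 plate, and p-values measure the spread between such wells. Against Control, the treatment cannot be told apart from the plate and from the 36 h of further culture. No treatment with palmitic acid alone was analysed here.

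Library totals ran from 26750226 to 35976589 counts, and 1 count was worth 0.0271 to 0.0403 CPM, a count scaled to a fixed library size. Levels are given as CPM after TMM scaling, as mean ± SD over 3 wells, and differences as log2 fold changes with their standard error (SE) from edgeR's quasi-likelihood test, two-sided, with Benjamini-Hochberg adjustment over 18415 genes and a threshold of 0.05. In a principal component analysis of the libraries, the second component, with 15.2% of the variance, set Val+PA well 2 and Control well 3 apart from the other wells of their groups, so counts are also given without both. Both wells were picked from these same data, so leaving them out narrows the spread within groups by choice. Calls made without them are descriptions. The summed level of 7 myoblast markers was 3750 to 5730 CPM in Val+PA wells, 3960 to 4160 CPM in Valine wells and 2660 to 2900 CPM in Control wells, mostly from Des, Itga7 and Chrna1. The myogenic factor Myod1 averaged 9 ± 2.4 CPM in Val+PA, 11.1 ± 1.3 CPM in Valine and 8.29 ± 1.2 CPM in Control, and Myf5 averaged 45.9 ± 3 CPM, 69.2 ± 3.8 CPM and 34.2 ± 4.8 CPM in the same order, so markers of the labelled cell type were present in each group. Of the myotube list, 13 of 13 tested genes rose in both Val+PA and Valine wells against Control, and 12 of 12 genes of dividing cells fell in both. Summed, the myotube genes were at 2440 to 3920 CPM in Val+PA wells, 2940 to 3030 CPM in Valine wells and 1600 to 1810 CPM in Control wells. These sums were mostly from Des and Ttn, and Des is also in the myoblast sum, so the 2 sums are not independent. Gene by gene, the median log2 fold change of the 13 tested was 2.35 in Val+PA and 2.6 in Valine. The genes of dividing cells were at 1230 to 1360 CPM in Val+PA wells, 1550 to 1650 CPM in Valine wells and 3190 to 3370 CPM in Control wells. Of 13 mitochondrially encoded genes, 0 passed in Val+PA and 5 fell in Valine. Control well 3 stood apart in them, as for mt-Nd2, with 68.4, 176 and 177 CPM in Val+PA wells, 56.8, 57.7 and 60.4 CPM in Valine wells, and 133, 131 and 533 CPM in Control wells. The metallothionein Mt1 fell in both, by a log2 fold change of -1.75 in Val+PA and -2.28 in Valine. These shifts go with each comparison against Control below, and their part in the members' values was not tested. Fewer cells of a kind and less RNA per cell cannot be told apart in such bulk samples. Among markers of other cell types, 7 of 9 tested fibroblast genes rose in Val+PA wells and 6 of 9 in Valine wells, with sums of 3440 to 4970 CPM in Val+PA, 3750 to 3840 CPM in Valine and 1440 to 2190 CPM in Control. These sums were mostly from Col3a1, Ly6a and Col1a2. Pdgfra passed in neither comparison with Control, and Thy1 had too few reads to be tested. Immune markers summed to 6.05 to 7.79 CPM in Val+PA, 5.76 to 7.04 CPM in Valine and 2.34 to 3.72 CPM in Control, endothelial markers to at most 3.55 CPM in any library and adipocyte markers to at most 0.706 CPM, with Itgam, Emcn, Adipoq, Lep and Retn at 0 in each of the 9 libraries.

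Promoter sequence shows where the letters of an ARE stand in these genes. RefSeq windows of 300 bases, 250 before and 50 after the start of transcription (GRCm38.p6), matched 30 of the 36 members, with 39 windows. The ARE core searched was TGACNNNGC, on both strands. It was present in 10 of the 30 members (33.3%), against 14% of 27025 genes with such windows. By windows the share was 25.6% for the members and 12.4% of 32851 windows. The related AP-1 letters TGANTCA, also on both strands, were in 5 members (16.7%) and in 8.97% of all genes. The fused form TGACTCAGC, in which both overlap, was in the windows of Prdx1 and Me1, 2 of the 30 (6.67%), against 0.503% of all genes. A match is a description of letters and not a binding site. The stretches below lie mostly before the start and are shown 5′ to 3′ on the gene's strand, with the core in capitals, so that a core on the other strand reads as its reverse complement.
Nfe2l2, chr2:75704879-75704913, minus strand: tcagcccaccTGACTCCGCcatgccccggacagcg
Gclm, chr3:122245407-122245447, plus strand: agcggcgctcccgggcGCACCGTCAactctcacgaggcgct
Txnrd1, chr10:82859098-82859138, plus strand: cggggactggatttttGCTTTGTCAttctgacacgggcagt
Sod1, chr16:90220690-90220730, plus strand: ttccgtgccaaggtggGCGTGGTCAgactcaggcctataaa
G6pdx, chrX:74428913-74428953, minus strand: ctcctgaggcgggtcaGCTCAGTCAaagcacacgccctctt
Ugdh, chr5:65435950-65435990, minus strand: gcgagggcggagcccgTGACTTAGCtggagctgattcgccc
The cores began 240 bases before the start in Nfe2l2, 134 in Gclm, 92 in Txnrd1, 56 in Sod1, 57 in G6pdx and 132 in Ugdh. In Me1 a core began 6 bases before the start, in Ugdh a further core began 94 bases before it, and in Srxn1 a core began at base 29 after it. Each distance is from the start in the window that holds the core. Txnrd1 and Me1 also have windows at other starts, which hold no core. The Txnrd1 window with the core, chr10:82858956-82859255, lies inside the gene, which begins at 82833951. The match in Pgd is in a window whose start lies over 200 bases from any start of a Pgd transcript in GENCODE M21, unlike 38 of the 39 windows, so it is not shown as promoter sequence. Without it, 9 members hold a core.

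The 250 bases before the start of Prdx1 and Srxn1 are shown because each holds a pair of AP-1 matches, and in Prdx1 one of these overlaps an ARE core. Capitals mark both kinds of match.
Prdx1, chr4:116685349-116685598, plus strand: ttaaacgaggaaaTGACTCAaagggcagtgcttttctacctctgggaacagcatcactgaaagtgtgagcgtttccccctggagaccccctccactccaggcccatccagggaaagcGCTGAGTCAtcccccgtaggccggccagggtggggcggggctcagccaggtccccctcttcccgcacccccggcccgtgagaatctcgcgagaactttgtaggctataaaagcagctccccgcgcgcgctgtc
Srxn1, chr2:152105274-152105523, plus strand: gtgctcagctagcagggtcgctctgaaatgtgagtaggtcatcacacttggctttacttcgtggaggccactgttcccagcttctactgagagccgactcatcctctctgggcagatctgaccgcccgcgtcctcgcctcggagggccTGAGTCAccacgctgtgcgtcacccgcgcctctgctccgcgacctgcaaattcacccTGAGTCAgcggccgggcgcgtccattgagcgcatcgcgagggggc
The AP-1 letters began 237 and 131 bases before the start in Prdx1 and 102 and 45 bases before it in Srxn1.

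**Figure D1:**
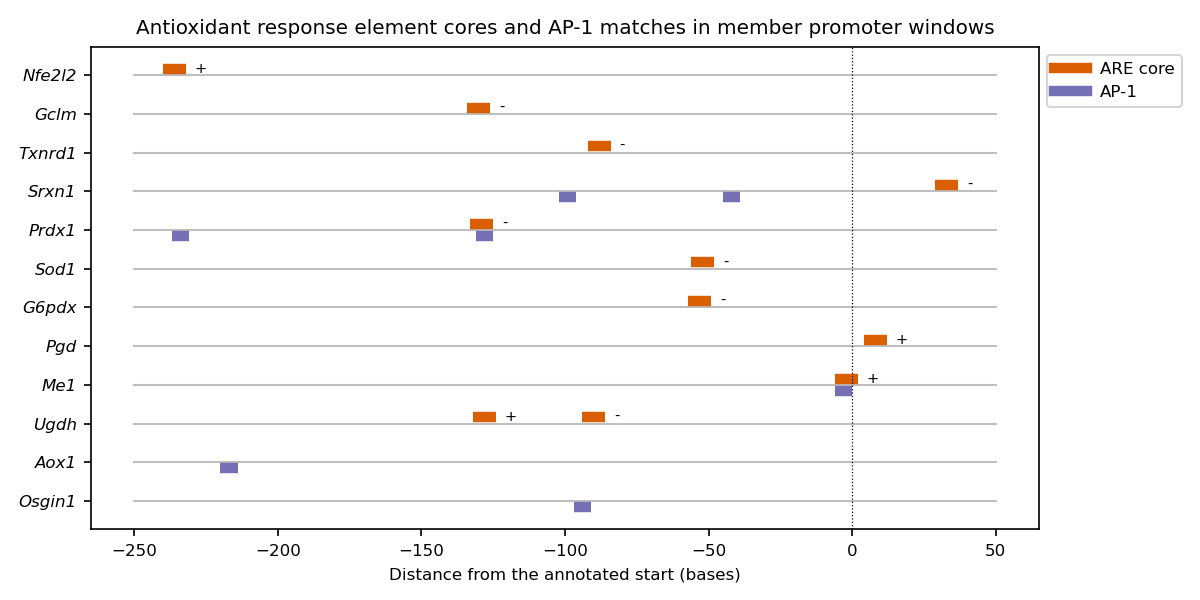
Positions of the ARE core and the AP-1 letters in the RefSeq promoter windows of the members that hold either. The x axis is the distance in bases from the start of transcription, each row is a gene, bars mark matches by motif and the signs beside ARE bars give the strand relative to the gene. Matches stand from 240 bases before the start in Nfe2l2 to 29 bases after it in Srxn1, and the window of Pgd is the 1 with no annotated transcript start within 200 bases.

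Against Control, more members were lower than higher in both treated groups. In Valine wells 17 of the 36 members fell and 3 rose, while 16 did not pass the test. In Val+PA wells 13 fell, 4 rose and 19 did not pass. The members called lower made up 47.2% in Valine and 36.1% in Val+PA, set beside 21.1% and 18.8% of all genes tested. The members called higher made up 8.33% in Valine and 11.1% in Val+PA, set beside 20.8% and 20.4% of all genes. The wells did not overlap, and lay above Control for 6 members and below it for 14 in Val+PA, when 23.5% and 22.1% of all genes did so, and above it for 7 and below it for 19 in Valine, when 29.7% and 29.2% of all genes did so. The median log2 fold change of the members was -0.17 in Val+PA and -0.28 in Valine, and that of all genes was 0.00 in both. The members' summed level was 5927 to 6162 CPM in Val+PA wells, 5516 to 5569 CPM in Valine wells and 6974 to 7016 CPM in Control wells, with no overlap between the 3 groups. With library size alone as the scale, 14 members fell and 5 rose in Valine, and 13 fell and 7 rose in Val+PA. The median log2 fold change of all genes was then 0.068 in Valine and 0.036 in Val+PA. Without Val+PA well 2 and Control well 3, 17 members fell and 7 rose in Val+PA, set beside 24.9% and 25.7% of all genes, and 21 fell and 7 rose in Valine, set beside 27.4% of all genes in either direction. The number that rose also reached 6 in Valine without Val+PA well 2 alone, and 7 in Val+PA without Control well 3 alone. Where no share of all genes is given, such counts are not read as particular to the members. Both comparisons share the Control wells.

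**Figure D2:**
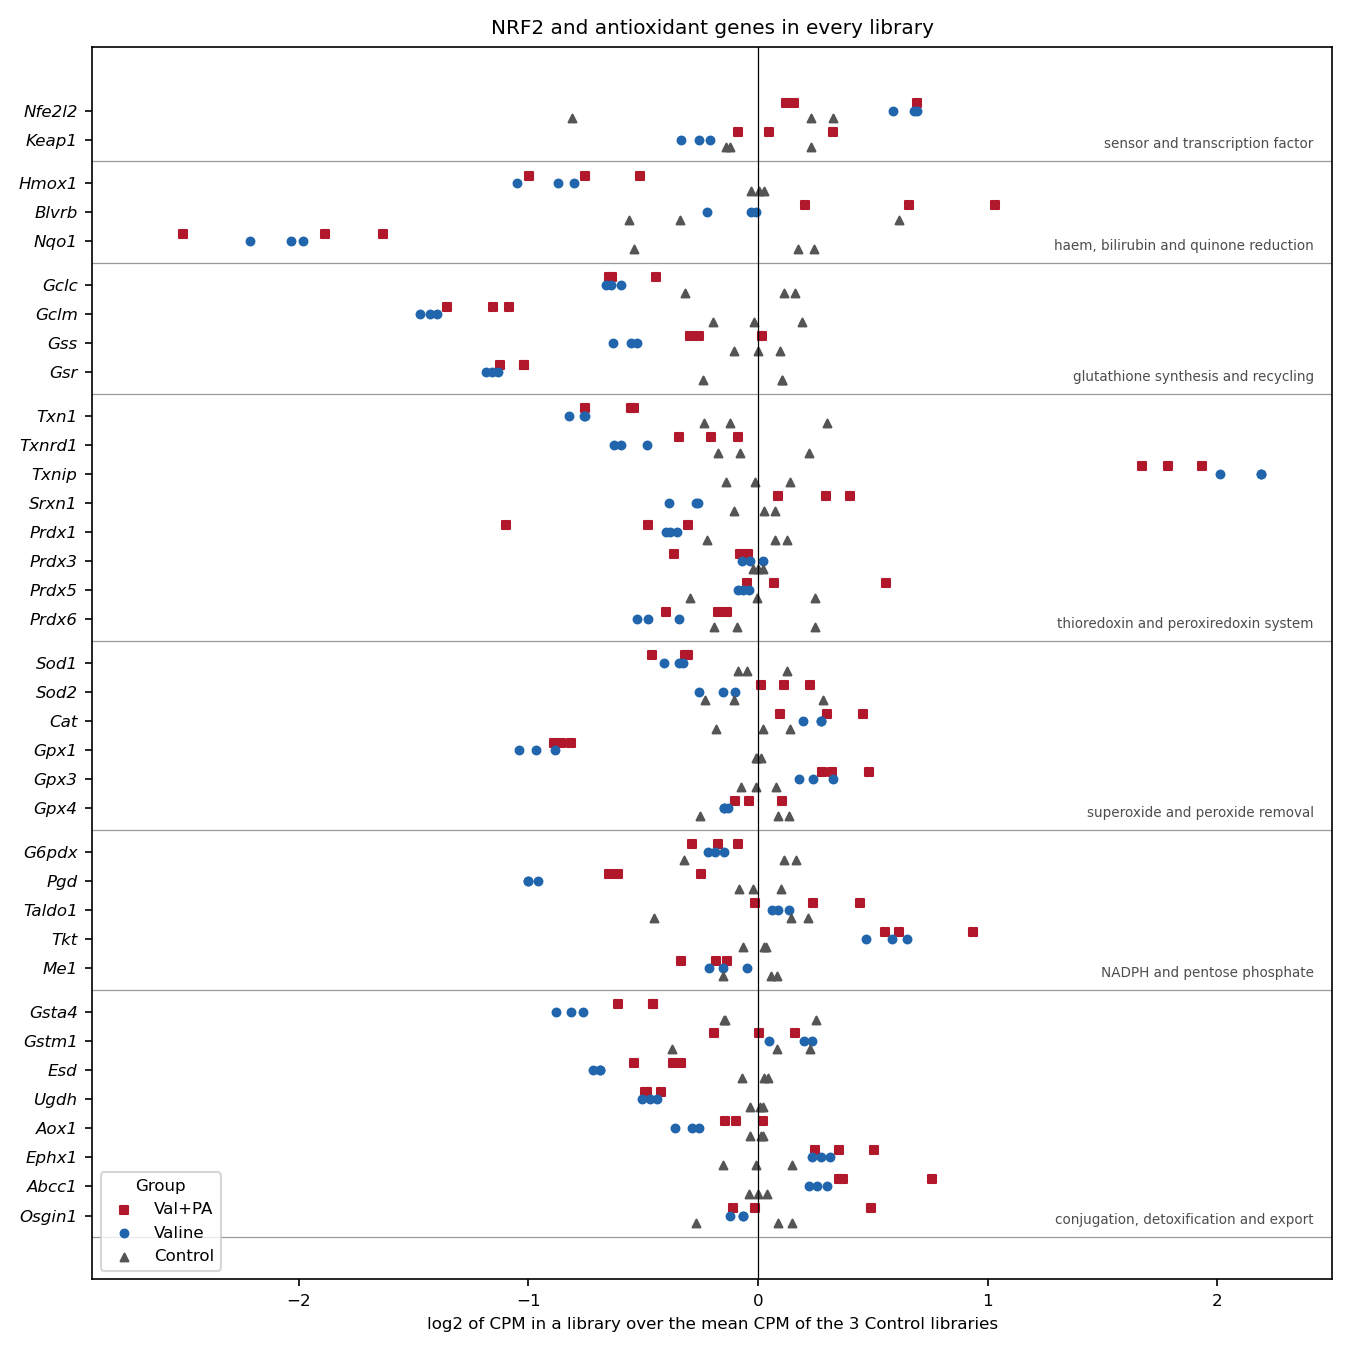
Levels of the 36 members in each of the 9 libraries, with 1 row per gene, ordered by role, and 1 point per well (squares Val+PA, circles Valine, triangles Control). The x axis is the log2 of the CPM over the gene's mean CPM in Control wells. Txnip and Tkt lie to the right of 0 in all 6 treated wells, and Nqo1, Gclm, Gsr and Gpx1 lie to the left in all 6.

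Of the transcription factor and its sensor, Nfe2l2 rose in Valine wells and Keap1 passed in neither comparison with Control. Nfe2l2 (ENSMUSG00000015839, chromosome 2, 75675513 to 75704641, minus strand, GRCm38), which encodes NRF2, had 130, 87.5 and 89.6 CPM in Val+PA wells, 130, 129 and 121 CPM in Valine wells, and 101, 94.5 and 45.9 CPM in Control wells. Valine wells lay above the Control range, Val+PA wells overlapped it, and Control well 3 stood far below the other Control wells. The log2 fold change was 0.35 ± 0.24 (SE) in Val+PA (adjusted p = 0.285, edgeR) and 0.65 ± 0.24 in Valine (adjusted p = 0.0485). The Valine call was lost without Control well 3, when the log2 fold change was 0.37 (adjusted p = 0.0821), and without any 1 of the Valine wells or Val+PA well 3. It was kept in 14 of 21 alternatives, over which the log2 fold change ran from 0.37 to 0.85 and the adjusted p from 4.56e-06 to 0.112. Keap1 (ENSMUSG00000003308, chromosome 9, 21229730 to 21239361, minus strand), which encodes the sensor, had 26.1, 34.8 and 28.7 CPM in Val+PA wells, 22, 23.2 and 24 CPM in Valine wells, and 25.5, 25.2 and 32.5 CPM in Control wells. Valine wells lay just below the Control range and Val+PA wells overlapped it. Neither difference passed the test, with log2 fold changes of 0.11 ± 0.14 in Val+PA (adjusted p = 0.574, edgeR) and -0.26 ± 0.14 in Valine (adjusted p = 0.148).

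**Figure D3:**
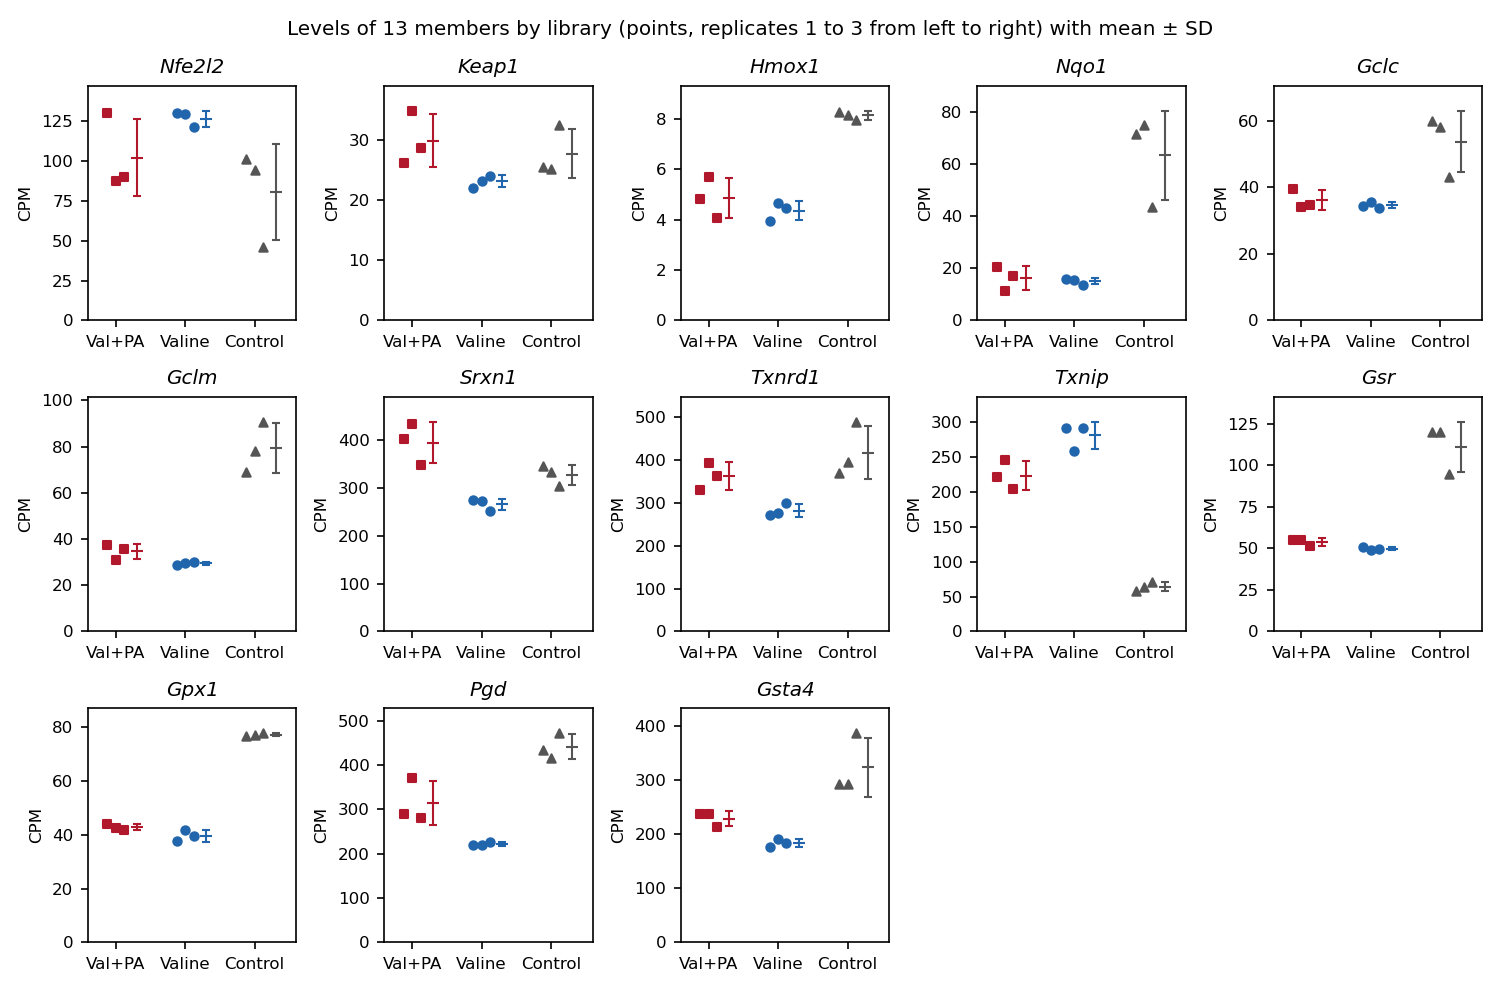
Levels of the 13 members that the rule for named genes picks, in CPM after TMM scaling on a linear axis that starts at 0. Points are wells, and the cross bar beside them is the group mean with its SD, with Val+PA to the left, Valine in the middle and Control to the right. Gclm, Gsr and Gpx1 have treated wells clear of Control wells, while the lowest Control well of Nfe2l2, at 45.9 CPM, lies apart from the others.

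Of the enzymes of haem, bilirubin and quinone reduction, Hmox1 and Nqo1 fell in both treated groups. Nqo1 (ENSMUSG00000003849, chromosome 8, 107388225 to 107403206, minus strand), which encodes the quinone reductase most often read as an NRF2 target, had 20.5, 11.2 and 17.2 CPM in Val+PA wells, 16.1, 15.5 and 13.7 CPM in Valine wells, and 71.7, 75.3 and 43.7 CPM in Control wells. All 6 treated wells were below the lowest Control well. Nqo1 was 3.9-fold lower in Val+PA, a log2 fold change of -1.96 ± 0.23 (adjusted p = 4.2e-05, edgeR), and 4.2-fold lower in Valine, at -2.07 ± 0.23 (adjusted p = 2.81e-05). Hmox1 (ENSMUSG00000005413, chromosome 8, 75093621 to 75100589, plus strand), which encodes the inducible haem oxygenase, had 4.83, 5.7 and 4.08 CPM in Val+PA wells, 3.94, 4.68 and 4.46 CPM in Valine wells, and 8.3, 8.17 and 7.97 CPM in Control wells. The Control wells were close together and above all treated wells. Its log2 fold change was -0.74 ± 0.15 in Val+PA (adjusted p = 0.00239, edgeR) and -0.9 ± 0.16 in Valine (adjusted p = 0.000631). Blvrb, which encodes a biliverdin and flavin reductase, had 25.5, 45.2 and 34.9 CPM in Val+PA wells, 21.7, 22 and 19 CPM in Valine wells, and 17.5, 15 and 33.9 CPM in Control wells. Control well 3 had about the level of Val+PA wells, so both treated groups overlapped Control, while Val+PA wells lay above Valine wells. Blvrb passed in neither comparison with all wells. Its log2 fold change was then 0.67 ± 0.27 in Val+PA (adjusted p = 0.0707, edgeR) and -0.08 ± 0.28 in Valine (adjusted p = 0.845). Over the alternatives the Valine value changed sign and ran from -0.29 to 0.37. Without Val+PA well 2 and Control well 3 its log2 fold change was 0.9 in Val+PA (adjusted p = 3.49e-05, edgeR) and 0.37 in Valine (adjusted p = 0.0194). The Control well left out there is the one at the level of Val+PA wells.

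All 4 genes of glutathione synthesis and recycling fell in Valine wells, and 3 of the 4 fell in Val+PA wells. Gclm (ENSMUSG00000028124, chromosome 3, 122245557 to 122270732, plus strand), the modifier subunit of the ligase that limits glutathione synthesis, had 37.4, 31 and 35.7 CPM in Val+PA wells, 28.6, 29.5 and 30.1 CPM in Valine wells, and 69.2, 78.3 and 90.6 CPM in Control wells. Each treated well was below each Control well. Gclm was 2.28-fold lower in Val+PA, at -1.19 ± 0.12 (adjusted p = 1.26e-05, edgeR), and 2.7-fold lower in Valine, at -1.43 ± 0.12 (adjusted p = 3.38e-06). Gclc (ENSMUSG00000032350, chromosome 9, 77754535 to 77794485, plus strand), the catalytic subunit of the same ligase, had 39.5, 34.2 and 34.6 CPM in Val+PA wells, 34.4, 35.5 and 33.9 CPM in Valine wells, and 60, 58 and 43.1 CPM in Control wells. Treated wells did not overlap Control wells, of which well 3 was the nearest to them, and Val+PA wells overlapped Valine wells. The log2 fold change of Gclc was -0.57 ± 0.13 in Val+PA (adjusted p = 0.00426, edgeR) and -0.63 ± 0.13 in Valine (adjusted p = 0.00218). Gsr (ENSMUSG00000031584, chromosome 8, 33652523 to 33698163, plus strand), the reductase that restores glutathione with NADPH, had 55, 55.1 and 51.2 CPM in Val+PA wells, 50.8, 49.1 and 49.9 CPM in Valine wells, and 120, 120 and 94.6 CPM in Control wells. It was 2.07-fold lower in Val+PA, at -1.05 ± 0.11 (adjusted p = 1.57e-05, edgeR), and 2.23-fold lower in Valine, at -1.16 ± 0.11 (adjusted p = 7.41e-06). Gss, glutathione synthetase, averaged 49.4 ± 6 CPM in Val+PA, 37.5 ± 1.4 CPM in Valine and 55.6 ± 3.8 CPM in Control. It fell in Valine (log2 fold change -0.57 ± 0.11, adjusted p = 0.00158, edgeR) and did not pass in Val+PA, where the value was -0.17 ± 0.11 (adjusted p = 0.248) and the wells overlapped those of Control. Acss2 overlaps Gss on the opposite strand over 22544 bases and was itself at 32.1 to 55.1 CPM. The strand setting of the counting is not given in the sources used here, so reads of the 2 genes may not be separated.

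Txnip rose while 4 of the other 7 genes of the thioredoxin and peroxiredoxin system fell in Valine wells, and 2 of those 7 fell in Val+PA wells. Txnip (ENSMUSG00000038393, chromosome 3, 96557957 to 96561883, plus strand) encodes a protein that binds reduced thioredoxin and restrains it, and that also limits glucose uptake. It had 221, 245 and 204 CPM in Val+PA wells, 292, 258 and 292 CPM in Valine wells, and 58.2, 63.4 and 70.5 CPM in Control wells. All treated wells were far above Control, and Val+PA wells were below Valine wells without overlap. Txnip was 3.49-fold higher in Val+PA, a log2 fold change of 1.8 ± 0.11 (adjusted p = 3.75e-07, edgeR), and 4.39-fold higher in Valine, at 2.13 ± 0.11 (adjusted p = 1.13e-07). Of the 36 members it had the largest log2 fold change upwards in both comparisons with Control. The gene lies wholly within the antisense gene Gm15441, which had 0.0815 to 0.407 CPM in the 9 libraries.

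Txn1, thioredoxin itself, had 297, 341 and 344 CPM in Val+PA wells, 297, 283 and 296 CPM in Valine wells, and 460, 425 and 616 CPM in Control wells. It fell in both, at -0.61 ± 0.13 in Val+PA (adjusted p = 0.00298, edgeR) and -0.78 ± 0.13 in Valine (adjusted p = 0.000603). Txnrd1 (ENSMUSG00000020250, chromosome 10, 82833951 to 82897712, plus strand), the cytosolic reductase that recharges thioredoxin, had 330, 394 and 363 CPM in Val+PA wells, 271, 277 and 299 CPM in Valine wells, and 371, 396 and 489 CPM in Control wells. Valine wells were below the Control range and Val+PA wells reached into it. Txnrd1 fell in Valine (log2 fold change -0.57 ± 0.12, adjusted p = 0.00234, edgeR) and did not pass in Val+PA (-0.21 ± 0.12, adjusted p = 0.189). Srxn1 (ENSMUSG00000032802, chromosome 2, 152105516 to 152111376, plus strand), the sulfiredoxin that repairs overoxidised peroxiredoxins, had 403, 434 and 349 CPM in Val+PA wells, 274, 272 and 251 CPM in Valine wells, and 346, 334 and 305 CPM in Control wells. The 3 groups did not overlap: Val+PA was the highest, Control stood between and Valine was the lowest. Srxn1 in Valine passed the test against Control narrowly, at -0.31 ± 0.1 (adjusted p = 0.034, edgeR), and lost the call in 10 of 21 alternatives. In Val+PA it was at 0.27 ± 0.1 and missed the threshold (adjusted p = 0.0606).

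The peroxiredoxins reduce hydrogen peroxide through a reactive cysteine. Prdx1, the cytosolic form, had 832, 480 and 736 CPM in Val+PA wells, 778, 805 and 787 CPM in Valine wells, and 1080, 1120 and 882 CPM in Control wells. Treated wells were below Control wells, with Val+PA well 2 the lowest of the 9. Prdx1 fell in Val+PA, at -0.59 ± 0.17 (adjusted p = 0.0157, edgeR), a call that was lost without Control well 1 (adjusted p = 0.0504) or Control well 2 (adjusted p = 0.0579), and it missed the threshold in Valine at -0.38 ± 0.17 (adjusted p = 0.0918). Prdx6 fell in Valine (-0.45 ± 0.13, adjusted p = 0.0139, edgeR), with 209, 252 and 245 CPM in Val+PA wells, 198, 192 and 218 CPM in Valine wells, and 242, 259 and 328 CPM in Control wells. The call was lost without Valine well 1 (adjusted p = 0.0571) or Valine well 2 (adjusted p = 0.0627). A copy of Prdx6 is annotated in the genome, so its reads may be split. Prdx3, the mitochondrial form, averaged 116 ± 14 CPM in Val+PA, 128 ± 4.1 CPM in Valine and 130 ± 1.9 CPM in Control, and Prdx5 averaged 59.3 ± 14 CPM, 48.8 ± 0.85 CPM and 51 ± 9.6 CPM in the same order of groups. Neither passed in any comparison.

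Among the enzymes that remove superoxide and peroxide, Sod1 and Gpx1 fell in both treated groups and the other 4 passed in neither. Gpx1 (ENSMUSG00000063856, chromosome 9, 108338903 to 108340343, plus strand), the cytosolic selenium enzyme that reduces peroxides with glutathione, had 43.9, 42.7 and 41.8 CPM in Val+PA wells, 37.6, 41.9 and 39.5 CPM in Valine wells, and 76.9, 77.1 and 77.9 CPM in Control wells. The wells of each group were close together, and the treated wells lay far below Control. Gpx1 was 1.81-fold lower in Val+PA, at -0.85 ± 0.09 (adjusted p = 2.06e-05, edgeR), and 1.95-fold lower in Valine, at -0.96 ± 0.09 (adjusted p = 7.98e-06). Sod1, the copper and zinc superoxide dismutase, had 48.2, 43.6 and 48.6 CPM in Val+PA wells, 47.8, 45.2 and 47.3 CPM in Valine wells, and 65.5, 56.4 and 58.1 CPM in Control wells. Its log2 fold change was -0.36 ± 0.1 in both treated groups, with adjusted p = 0.0141 in Val+PA and 0.013 in Valine (edgeR). The call was lost in 3 of 21 alternatives in either comparison, among them that without Control well 1 (adjusted p = 0.069 in Val+PA and 0.0635 in Valine). Sod2, the mitochondrial dismutase, averaged 89.2 ± 6.6 CPM in Val+PA, 72.9 ± 4 CPM in Valine and 82 ± 16 CPM in Control. Catalase, Cat, averaged 113 ± 14 CPM in Val+PA, 110 ± 3.3 CPM in Valine and 92.6 ± 10 CPM in Control. Gpx4, which protects membrane lipids from peroxidation, averaged 459 ± 34 CPM in Val+PA, 419 ± 2.9 CPM in Valine and 462 ± 64 CPM in Control. The secreted Gpx3 averaged 6.34 ± 0.48 CPM in Val+PA, 5.86 ± 0.3 CPM in Valine and 4.92 ± 0.26 CPM in Control. Its treated wells were above the Control range, but the log2 fold change of 0.36 in Val+PA missed the threshold (adjusted p = 0.0521, edgeR).

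Of the 5 enzymes of NADPH supply and the pentose phosphate pathway, Pgd fell and Tkt rose in both treated groups. That is 20% in each direction, near the 18.8% to 21.1% of all genes, so these counts are not read as particular to the 5. Pgd (ENSMUSG00000028961, chromosome 4, 149149991 to 149166771, minus strand), the phosphogluconate dehydrogenase of the oxidative pentose phosphate branch, had 289, 371 and 281 CPM in Val+PA wells, 220, 220 and 227 CPM in Valine wells, and 434, 417 and 472 CPM in Control wells. The 3 groups did not overlap, with Control the highest and Valine the lowest. Its log2 fold change was -0.49 ± 0.11 in Val+PA (adjusted p = 0.00485, edgeR) and -0.99 ± 0.12 in Valine (adjusted p = 3.7e-05). Tkt, the transketolase of the non-oxidative branch, had 71, 88.8 and 68 CPM in Val+PA wells, 69.5, 72.8 and 64.3 CPM in Valine wells, and 47.5, 47.3 and 44.4 CPM in Control wells. All treated wells were above Control, with log2 fold changes of 0.71 ± 0.12 in Val+PA (adjusted p = 0.000478, edgeR) and 0.57 ± 0.12 in Valine (adjusted p = 0.00205). The other 3 did not pass. G6pdx, the entry enzyme of the oxidative branch, averaged 109 ± 7.7 CPM in Val+PA, 108 ± 2.6 CPM in Valine and 123 ± 21 CPM in Control. Taldo1, transaldolase, averaged 186 ± 29 CPM, 168 ± 4.4 CPM and 157 ± 37 CPM in Val+PA, Valine and Control. The cytosolic malic enzyme Me1 averaged 139 ± 9.6 CPM in Val+PA, 147 ± 8.8 CPM in Valine and 161 ± 14 CPM in Control. Ikbkg overlaps G6pdx on the opposite strand over 19712 bases and was at 145 to 192 CPM.

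The 8 genes of conjugation, detoxification and export split. In Valine wells 4 fell (50%) and 4 did not pass, and in Val+PA wells 3 fell (37.5%) and 2 rose (25%). Of all genes tested, 21.1% fell in Valine, and 18.8% fell and 20.4% rose in Val+PA. With 8 genes, the share that rose in Val+PA is not read as particular to them. Gsta4 (ENSMUSG00000032348, chromosome 9, 78182774 to 78209349, plus strand), a glutathione transferase that acts on the lipid peroxidation product 4-hydroxynonenal, had 236, 236 and 212 CPM in Val+PA wells, 176, 191 and 184 CPM in Valine wells, and 293, 292 and 386 CPM in Control wells. The groups did not overlap, and Valine was the lowest. Its log2 fold change was -0.51 ± 0.12 in Val+PA (adjusted p = 0.00501, edgeR) and -0.82 ± 0.12 in Valine (adjusted p = 0.000196). Esd, an esterase that completes the glutathione-dependent disposal of formaldehyde, averaged 671 ± 50 CPM in Val+PA, 550 ± 6.4 CPM in Valine and 893 ± 38 CPM in Control, a log2 fold change of -0.41 ± 0.09 in Val+PA (adjusted p = 0.00353, edgeR) and -0.7 ± 0.09 in Valine (adjusted p = 8.71e-05). Ugdh, which makes UDP-glucuronate for glucuronidation, averaged 223 ± 6.3 CPM in Val+PA, 222 ± 5.3 CPM in Valine and 308 ± 6.3 CPM in Control and changed by -0.47 ± 0.08 in both (adjusted p = 0.000929 in Val+PA and 0.000834 in Valine, edgeR). Aox1, aldehyde oxidase, fell in Valine at -0.3 ± 0.11 (adjusted p = 0.0416, edgeR), a call that 13 of 21 alternatives did not make. It averaged 16.5 ± 1 CPM in Val+PA, 14.1 ± 0.53 CPM in Valine and 17.3 ± 0.38 CPM in Control.

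Among these 8 genes, Abcc1 and Ephx1 rose in Val+PA. Abcc1, an exporter of glutathione conjugates, had 234, 306 and 231 CPM in Val+PA wells, 216, 211 and 223 CPM in Valine wells, and 176, 181 and 186 CPM in Control wells. Ephx1, microsomal epoxide hydrolase, had 252, 301 and 271 CPM in Val+PA wells, 264, 250 and 257 CPM in Valine wells, and 235, 211 and 191 CPM in Control wells. Treated wells of either gene were above the Control range. The rise passed in Val+PA, at 0.51 ± 0.11 for Abcc1 (adjusted p = 0.00418, edgeR) and 0.37 ± 0.11 for Ephx1 (adjusted p = 0.0149), and not in Valine, at 0.26 ± 0.11 (adjusted p = 0.0883) and 0.27 ± 0.11 (adjusted p = 0.0547). The Ephx1 call was lost when its 2 groups were fitted alone (adjusted p = 0.0604). Gstm1, another glutathione transferase, averaged 48.2 ± 5.8 CPM in Val+PA, 54.1 ± 3.6 CPM in Valine and 48.3 ± 10 CPM in Control, and Osgin1 averaged 12.3 ± 2.9 CPM, 10.4 ± 0.2 CPM and 11.1 ± 1.7 CPM in the same order. Neither passed in any comparison, and Gstm1 has near-identical relatives among which reads can be shared.

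**Figure D4:**
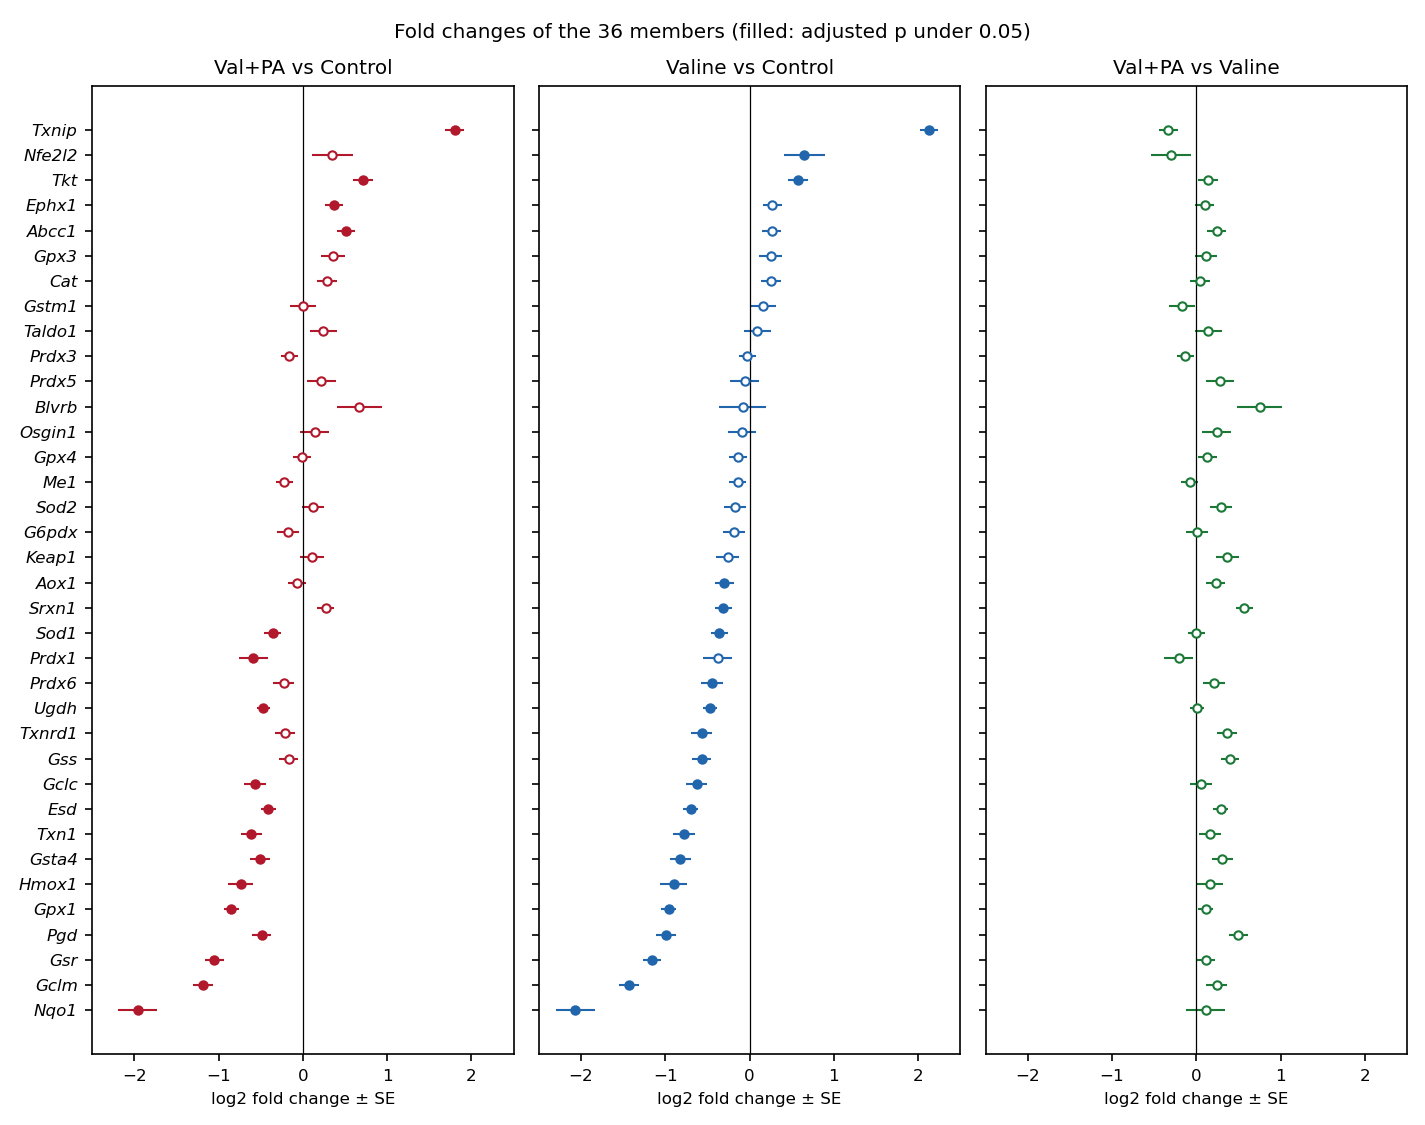
Log2 fold changes of the 36 members in each comparison, in panels for Val+PA vs Control, Valine vs Control and Val+PA vs Valine, with SEs as bars and genes ordered by the Valine value. Filled points passed the adjusted threshold of 0.05 and open points did not. The 17 Valine falls and 13 Val+PA falls lie to the left of 0, Txnip lies farthest to the right in both, and no point of Val+PA vs Valine is filled.

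Of the 10 members with an ARE core in a window, Pgd included, 5 fell and 0 rose in Val+PA, and 6 fell and 1 rose in Valine. Of the 20 members whose windows hold no core, 4 fell and 3 rose in Val+PA, and 6 fell and 2 rose in Valine. Of the 6 members with no window, 4 fell and 1 rose in Val+PA, and 5 fell and 0 rose in Valine. Of 1879 tested genes with a core, 21% fell and 21.9% rose in Val+PA, and 22.9% fell and 21.5% rose in Valine. Of 9396 tested genes with windows and no core, 20.8% fell and 23.2% rose in Val+PA, and 23.1% fell and 23.3% rose in Valine. Among members, the core stood in Gclm, Ugdh, Sod1 and Pgd, which fell in both, and in Nfe2l2, which rose in Valine. It also stood in Txnrd1 and Srxn1, which fell in Valine alone, in Prdx1, which fell in Val+PA alone, and in G6pdx and Me1, which did not pass. Nqo1, Txn1, Gpx1 and Esd fell in both with no core in their windows. Sequence outside the windows of 300 bases was not searched, so a window without a core does not show that a gene lacks an ARE.

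Between Val+PA and Valine, which differ by palmitic acid, by the listed hours of valine and by the plate, no member passed the threshold, and neither did any of the 18415 genes (0% called in either direction by edgeR's quasi-likelihood test). At an unadjusted p under 0.05, 9 members were higher and 1 was lower in Val+PA, 25% and 2.78% of the members, set beside 7.72% and 5.47% of all genes. The 3 Val+PA wells were all above the 3 Valine wells for 14 members and below them for 1, and of all genes 12.6% and 12% did so. The sign was upward in 30 of the 36 (83.3%) and in 50.7% of all genes, and the median log2 fold change was 0.14 for the members and 0.00 for all genes. Srxn1 had the smallest p, with a log2 fold change of 0.57 ± 0.1 (unadjusted p = 0.000144, adjusted p = 0.168, edgeR), a mean of 395 ± 43 CPM in Val+PA and 266 ± 12 CPM in Valine. By p, Pgd followed at 0.5 ± 0.11 (adjusted p = 0.197), Gss at 0.4 ± 0.11 (adjusted p = 0.263), Esd at 0.29 ± 0.09 (adjusted p = 0.313) and Txnrd1 at 0.36 ± 0.12 (adjusted p = 0.321). Next came Txnip at -0.33 ± 0.11 (adjusted p = 0.321), the 1 member below the Valine range, then Blvrb at 0.75 ± 0.27 (adjusted p = 0.336), Keap1 at 0.37 ± 0.14 (adjusted p = 0.34) and Gsta4 at 0.31 ± 0.12 (adjusted p = 0.343). Nfe2l2 itself was at -0.3 ± 0.24 (adjusted p = 0.554), with overlapping wells.

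The count of 0 depended on the wells and the tool. DESeq2 called Srxn1 (log2 fold change 0.56, adjusted p = 0.000857) and Pgd (0.49, adjusted p = 0.0192) higher in Val+PA than in Valine, among 132 genes higher and 80 lower. edgeR with no filter on low counts called 3 members higher, Srxn1, Pgd and Blvrb, among 476 genes higher and 287 lower. Without Val+PA well 2 and Control well 3, edgeR called 8 members higher in Val+PA, namely Srxn1, Pgd, Txnrd1, Gsta4, Gclm, Gss, Esd and Blvrb, and Txnip lower. Of all genes, 308 (1.67%) were higher and 301 (1.63%) lower in that fit. It leaves out wells picked because they stood apart in these data, so its calls are descriptions. Srxn1 was then at 0.5 (adjusted p = 0.00162) and Pgd at 0.36 (adjusted p = 0.00309).

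The deposited length-scaled signal gives the members' levels relative to each other. In Control wells Txn1 had the highest signal of the 36, at 969 ± 170 (SD, n = 3), ahead of Prdx1 at 692 ± 110, Gpx4 at 549 ± 89, Esd at 542 ± 25 and Gsta4 at 521 ± 72. The last 3 did not differ beyond their spread. The lowest were Aox1 at 4.08 ± 0.14, Gpx3 at 5.55 ± 0.22, Osgin1 at 8.52 ± 1.5 and Hmox1 at 9.51 ± 0.44, of which Osgin1 and Hmox1 were within their spread. Txn1 was also first in Val+PA, at 650 ± 54, ahead of Gpx4 at 556 ± 40 and Prdx1 at 469 ± 120. The spread between wells was narrowest in Valine: the median range of a member over the 3 wells was 0.27 on the log2 scale in Val+PA, 0.1 in Valine and 0.34 in Control. Control well 3 differed from the mean of the other Control wells by over 0.5 on the log2 scale for 5 members, among them Nfe2l2 at -1.09 and Blvrb at 1.06, and Val+PA well 2 differed so for 5, among them Nqo1 at -0.75 and Prdx1 at -0.71.

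A further 108 genes of the pathway were found, of which 102 could be tested, and they moved in both directions. In Valine 29 rose and 24 fell, 28.4% and 23.5% of those tested, and in Val+PA 29 rose and 20 fell, 28.4% and 19.6%. The shares of all genes, printed above, were between 18.8% and 21.1%. The median log2 fold change of the 102 was 0.18 in Val+PA and 0.04 in Valine. Between Val+PA and Valine 0 passed in edgeR, 20 were higher and 2 lower at an unadjusted p under 0.05, and DESeq2 called 3 higher.

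The cystine, glutathione and cysteine genes mostly rose: 8 of 12 in Valine and 7 of 12 in Val+PA, while 1 and 2 fell. Oplah, which returns oxoproline of the glutathione cycle to glutamate, had 15.5, 22.9 and 18.4 CPM in Val+PA wells, 16.9, 16.3 and 17.2 CPM in Valine wells, and 5.67, 4.25 and 5.24 CPM in Control wells. It rose by 1.9 ± 0.17 on the log2 scale in Val+PA (adjusted p = 3.71e-06, edgeR) and by 1.73 ± 0.17 in Valine (adjusted p = 7.79e-06). Outside the rule for named genes, and chosen after their values were seen, are Slc7a11 and Cth. Slc7a11, the cystine importer, averaged 112 ± 21 CPM in Val+PA, 80.7 ± 2.6 CPM in Valine and 44.6 ± 7 CPM in Control, with log2 fold changes of 1.33 ± 0.14 (adjusted p = 2.24e-05, edgeR) in Val+PA and 0.85 ± 0.14 (adjusted p = 0.000547) in Valine. Cth, which makes cysteine from cystathionine, averaged 219 ± 8.5 CPM in Val+PA, 195 ± 9.8 CPM in Valine and 75.5 ± 1.7 CPM in Control, with log2 fold changes of 1.54 ± 0.09 (adjusted p = 2.48e-07, edgeR) and 1.37 ± 0.09 (adjusted p = 5.36e-07). Gclc, Gclm and Gsr fell in the same groups.

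Of 7 genes of iron and haem handling, 4 fell and 1 rose in both treated groups. The rise was Slc40a1, ferroportin, the exporter of iron, with 86.2, 87 and 94.5 CPM in Val+PA wells, 83.7, 78.5 and 75.8 CPM in Valine wells, and 14, 12.2 and 13.5 CPM in Control wells. Its log2 fold change was 2.75 ± 0.11 in Val+PA (adjusted p = 2.27e-08, edgeR) and 2.58 ± 0.11 in Valine (adjusted p = 3.65e-08). The falls, which lie outside the rule for named genes and were picked with their values in view, were the ferritin chains Fth1 and Ftl1, which store iron, the biliverdin reductase Blvra and the haem transporter Slc48a1. Fth1 averaged 184 ± 3.8 CPM in Val+PA, 183 ± 11 CPM in Valine and 320 ± 44 CPM in Control, and Ftl1, whose copies in the genome can share reads, averaged 1470 ± 310 CPM in Val+PA, 1110 ± 11 CPM in Valine and 2300 ± 110 CPM in Control. Of 12 partners and relatives of NRF2, 3 rose and 4 fell in Valine and 3 rose and 3 fell in Val+PA. The other genes described in this paragraph were likewise picked with their values in view, outside that rule. The products of 3 small MAF genes pair with NRF2. Maff changed by -0.96 ± 0.23 in Val+PA (adjusted p = 0.0054, edgeR) and -1.73 ± 0.23 in Valine (adjusted p = 0.000106), and Mafk by -0.53 ± 0.18 (adjusted p = 0.0367) and -1.08 ± 0.18 (adjusted p = 0.000605). Mafg fell in Valine at -0.53 ± 0.17 (adjusted p = 0.023, edgeR) and did not pass in Val+PA at -0.07 ± 0.17 (adjusted p = 0.775). Nfe2l1, the related factor NRF1, averaged 313 ± 61 CPM in Val+PA, 262 ± 2.9 CPM in Valine and 159 ± 18 CPM in Control and rose in both.

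**Figure D5:**
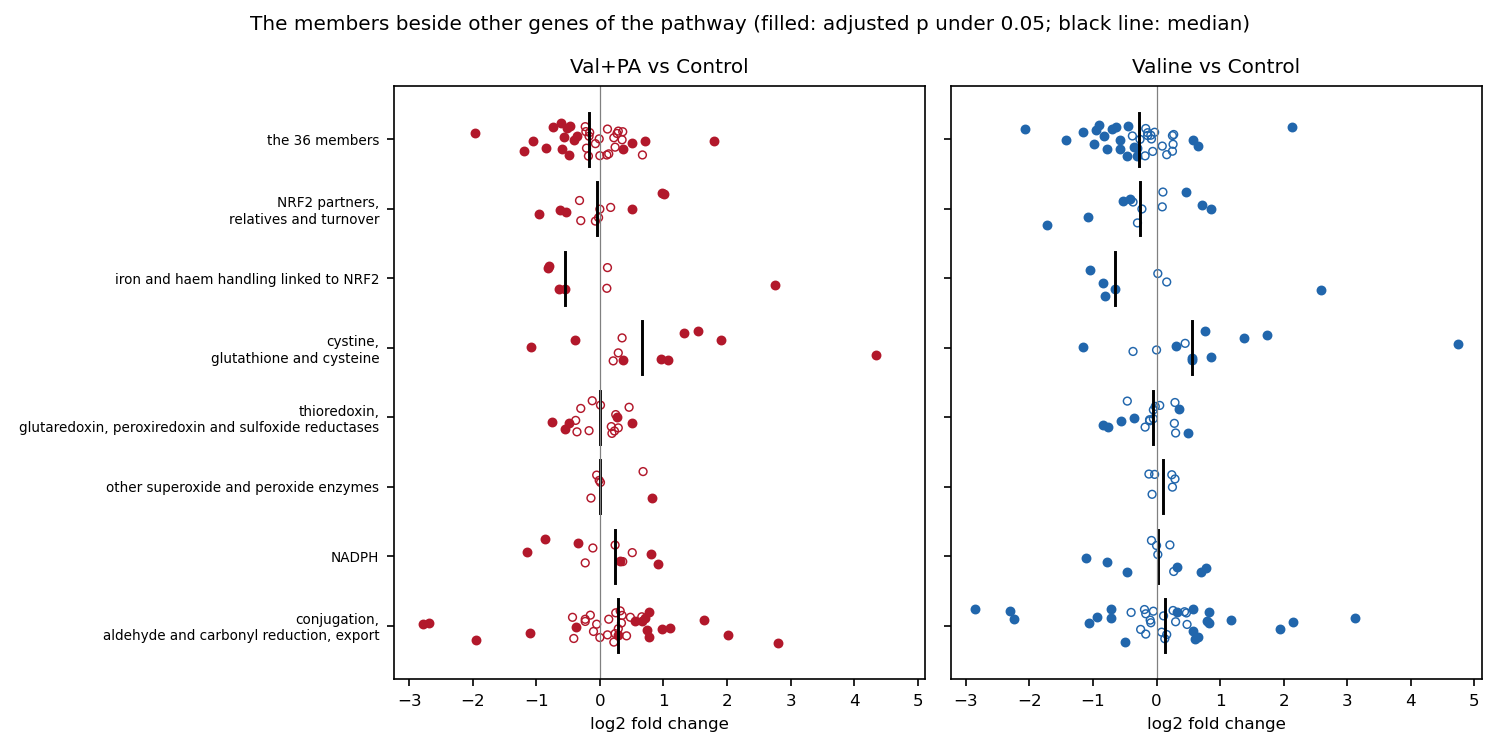
Log2 fold changes (x axis) of the 36 members and the 102 other pathway genes tested, in strips by group, for Val+PA vs Control and Valine vs Control. Filled points passed the adjusted threshold of 0.05, and black lines are medians. The cystine, glutathione and cysteine strip has 8 filled points to the right in Valine and 7 in Val+PA, and the iron and haem strip has 4 to the left and 1 to the right in each.

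The list of conjugation, carbonyl reduction and export also holds some other genes, among them Fosl1, which fell in both groups. Of its 37 tested genes, 12 rose in either treated group, 8 fell in Valine and 5 fell in Val+PA. Aldh3a1, an aldehyde dehydrogenase, had 9.39, 8.13 and 8.22 CPM in Val+PA wells, 13.6, 12.2 and 11.7 CPM in Valine wells, and 68.2, 66.1 and 43 CPM in Control wells. It changed by -2.78 ± 0.18 in Val+PA (adjusted p = 3.8e-07, edgeR) and by -2.24 ± 0.17 in Valine (adjusted p = 1.44e-06). Gsta1, a glutathione transferase, had 3.47, 3.78 and 1.89 CPM in Val+PA wells, 2.39, 2.3 and 3.43 CPM in Valine wells, and 16.6, 19.8 and 22.3 CPM in Control wells, a log2 fold change of -2.68 ± 0.25 in Val+PA (adjusted p = 5.35e-06, edgeR) and -2.86 ± 0.25 in Valine (adjusted p = 3.9e-06). Gstm7, another transferase, went the other way, with 2.5, 2.82 and 2.6 CPM in Val+PA wells, 3.61, 3.23 and 2.9 CPM in Valine wells, and 1.22, 0.76 and 0.524 CPM in Control wells, or 1.64 ± 0.26 in Val+PA (adjusted p = 0.00039, edgeR) and 1.94 ± 0.26 in Valine (adjusted p = 9.87e-05). Values of single transferases of these families are uncertain, because near-identical copies can share reads. Fosl1, which encodes the AP-1 subunit FRA-1, had 1.66, 1.86 and 1.79 CPM in Val+PA wells, 1.49, 1.66 and 0.997 CPM in Valine wells, and 8.11, 7.17 and 5.2 CPM in Control wells. It changed by -1.95 ± 0.22 in Val+PA (adjusted p = 3.18e-05, edgeR) and by -2.3 ± 0.23 in Valine (adjusted p = 9.8e-06). Of 17 thioredoxin, glutaredoxin and sulfoxide reductase genes, 2 rose and 4 fell in Valine, and 2 rose and 3 fell in Val+PA. Of 11 NADPH and pentose phosphate genes, 3 rose and 3 fell in either group. Of 6 superoxide and peroxide genes, 0 passed in Valine and Sod3, named after its values were seen, rose in Val+PA.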

How the data were processed

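RNA was measured in 9 libraries of C2C12 cells, 3 each of Val+PA, Valine and Control, grouped by their labels. The authors' count table gives whole read counts by gene ID and library, without normalization. The authors' deposited normalized table holds a signal, tested on its values to be the count multiplied by 1 factor of the gene and 1 of the library. It was used to compare levels between genes and as an alternative. The tools HISAT2, featureCounts and DESeq2 and the build GRCm38 come, with no versions, from the submitters' processing notes. How strand was handled in the counting is not given in the sources used here. Columns of Val+PA were matched by their code, shorter by 1 letter than that of the labels. Symbols and coordinates came from GENCODE M21 (GRCm38), and promoter sequences from RefSeq (GRCm38.p6).

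Counts were filtered with filterByExpr, which left 18415 genes, scaled by TMM and tested by the quasi-likelihood method of edgeR 4.0.16 (R 4.3.3), with all 9 libraries in 1 fit and 6 residual degrees of freedom. The SE was taken as the size of the log2 fold change over the root of its F statistic. Each row of the table named a gene ID. In simulated counts with known changes, 2-fold changes were recovered for 33 of 50 genes in Valine vs Control, 35 of 50 in Val+PA vs Control and 36 of 50 in Val+PA vs Valine, on 17998, 18014 and 17996 genes. For 1.5-fold changes recovery was 13, 14 and 13 of 50 in the same order, and calls among unchanged genes numbered 12, 12 and 10. Alternatives used DESeq2 1.42.0, limma 3.58.1, other scalings, filters and thresholds, subsets of libraries and the replicate number as a block.

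Values well by well are given by rule for the sensor pair, core targets, members past the threshold by 1 or more on the log2 scale in either direction, and the member with the smallest p between Val+PA and Valine. A role with none of these gives its member with the largest absolute log2 fold change, by which Gpx1, Pgd and Gsta4 entered. Other members given so were chosen after their values were seen. Pathway genes named are the 3 largest rises and falls against Control with a mean of at least 2 CPM. Pathway genes outside this rule, marked in the text, were chosen after their values were seen. The members and lists were chosen with earlier results of these data known. Of 109 other pathway genes listed, 108 had an ID.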

Additional observations from a re-analysis of the deposited data

How the results depend on the processing

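Of the 20 members called in Valine vs Control, 15 kept the call in every one of the alternatives run and 0 changed sign. Of the 17 called in Val+PA vs Control, 14 kept it and 0 changed sign. Of the 36 uncalled in Val+PA vs Valine, 9 were called in at least 1 alternative. Members higher in Valine vs Control numbered 3, and 5 with upper-quartile factors, 5 with library size alone, 5 with the 2 groups alone, 2 to 6 with 1 library left out (6 without Val+PA well 2) and 7 without both Val+PA well 2 and Control well 3. Members higher in Val+PA vs Control numbered 4, and 7 with upper-quartile factors, 7 with library size alone, 4 to 7 with 1 library left out (7 without Control well 3) and 7 without both wells. These scalings moved the median of all genes by at most 0.072 on the log2 scale. No share of all genes is set beside these counts, so they are not read as particular to the members. At an adjusted p of 0.01, 19 of the other pathway genes were higher in Valine vs Control, and of all genes 2545 were higher and 2547 lower. In Val+PA vs Valine, members higher numbered 2 in DESeq2, 3 with no filter and 8 without both wells, where 1 was lower. Other pathway genes higher numbered 3, 10 and 11 in those 3 settings, and 1 was lower with no filter and 1 without both wells. All genes higher numbered 132, 476 and 308, and lower 80, 287 and 301. The fit with no filter tests more genes than the others, so these counts have no common base. Over the 21 alternatives, uncalled log2 fold changes changed sign for 5 members in Valine vs Control, 5 in Val+PA vs Control and 6 in Val+PA vs Valine. Among the wider ranges, Blvrb in Valine vs Control ran from -0.29 to 0.37 and Osgin1 in Val+PA vs Control from -0.18 to 0.26. Keap1 in Val+PA vs Control ran from -0.02 to 0.24, Nqo1 in Val+PA vs Valine from -0.09 to 0.32 and Gclc there from -0.01 to 0.1. The cause of these shifts was not tested. The replicate numbers showed no sign of pairing the wells. Deviations from group means correlated at -0.272 to 0.158 between same-numbered wells and at -0.326 to 0.282 between other wells. With 3 wells per group these values cannot exclude a pairing. With the replicate block, 3 members were higher and 16 lower in Valine vs Control, 4 and 13 in Val+PA vs Control, and 0 and 0 in Val+PA vs Valine. Each member had at least 129 counts in each library. The simulated data drew the changed genes at random over all levels, and changed far fewer than were called against Control here. Their recovery of 1.5-fold changes is therefore not that of the members, of which Sod1 passed at a 1.28-fold fall in Valine.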
